A study of Mus musculus with 18 samples.

Results

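miR-210, miR-342 and the miR-26 family were followed through 18 small RNA libraries of BV-2 cells, an immortalized mouse microglial line. The members were all rows whose names belong to miR-210, miR-342, miR-26a or miR-26b, which gave 14 of the 2134 rows deposited per sample, 5 hairpins (written mir) and 9 mature arms (written miR). The 3 families were chosen by their measured levels in these same libraries, which differed between samples with low and high title numbers, so that difference is given as a description and was not tested. Each title carries a number from 22 to 39, used once, and each of the ranges 22 to 27, 28 to 33 and 34 to 39 holds 1 sample of every group. The labels do not say what the numbers stand for, and by the study's methods all libraries were sequenced as a single pool.

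There were 6 groups of 3 samples, which were untreated control cells and cells given LPS, THC, CBD, THC+LPS or CBD+LPS. CBD (cannabidiol) and THC (tetrahydrocannabinol) are cannabinoids of the cannabis plant, given at 10 μM for 6 h in all. LPS (lipopolysaccharide), a component of bacterial cell walls, was given at 100 ng/ml for 4 h, and in the combined groups it followed 2 h of the cannabinoid. The groups came from 1 cell line, and nothing in the labels states that the samples of a group came from separate cultures, so that p-values measure the spread between these samples, which may be technical. Levels are CPM, read counts scaled to the size of the library and by edgeR's TMM factor, as the authors deposited them, and whole reads could be recovered from them.

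The libraries held 442718 to 1057147 reads on miRNAs, with a median of 773271, and 3 reads stood for 2.98 to 6.38 CPM. The blood and myeloid markers miR-142-5p (7254 to 12346 CPM), miR-142-3p (1486 to 3318 CPM) and miR-223-3p (48.5 to 178 CPM) were present in every sample. The markers of neurons (miR-124-3p), muscle (miR-1a-3p, miR-133a-3p), liver (miR-122-5p) and red cells (miR-451a) had at most 3 reads in a sample. Of the other markers, miR-9-5p had 2 to 9 reads, miR-200c-3p 3 to 15 reads and miR-126-3p 72.1 to 161 CPM, whereas miR-141-3p, an epithelial marker, was at 5525 to 8978 CPM. miR-155-5p, a miRNA that LPS raises in macrophages, was higher with LPS in 9 of 9 comparisons of an LPS sample with the sample of the same range and cannabinoid, by 2.57 to 3.98 on the log2 scale. A trio of hairpin rows, mir-6243, mir-6240 and mir-6236, took 0.151% to 4.55% of a library, and this share was lowest in CBD samples 36 (0.151%) and 30 (0.160%), control sample 22 (0.204%) and THC+LPS sample 27 (0.361%).

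A miRNA gene is transcribed as a long RNA that is cut to a hairpin and then to a duplex, of which usually 1 arm is kept in the silencing complex and pairs with messenger RNAs through its seed. miR-210 is the miRNA best known for its induction by hypoxia-inducible factors when oxygen is low. miR-342 is made from an intron of Evl, a gene for a regulator of actin filaments, and is abundant in blood cells. The miR-26 hairpins lie within the genes of the small phosphatases Ctdsp1, Ctdsp2 and Ctdspl, and miR-26a-5p is a widely expressed repressor of targets such as the histone methyltransferase Ezh2.

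All 9 mature members and all 5 hairpins were matched in RefSeq (GRCm38.p6). The mature sequences are shown because the seed sorts the members into families, with bases 2 to 8, the seed, in capitals.
mmu-miR-210-3p: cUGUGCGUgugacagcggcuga
mmu-miR-210-5p: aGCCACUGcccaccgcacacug
mmu-miR-342-3p: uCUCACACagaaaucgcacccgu
mmu-miR-342-5p: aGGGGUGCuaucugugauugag
mmu-miR-26a-5p: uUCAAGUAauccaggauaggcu
mmu-miR-26b-5p: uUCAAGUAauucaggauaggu
mmu-miR-26a-1-3p: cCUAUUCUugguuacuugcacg
mmu-miR-26a-2-3p: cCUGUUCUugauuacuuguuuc
mmu-miR-26b-3p: cCUGUUCUccauuacuuggcuc
miR-26a-5p and miR-26b-5p have the same seed, which no other mouse miRNA in the RefSeq table has, and over 21 bases they differ by C11U and C21U (miR-26a-5p first, counted from the 5′ end), with miR-26a-5p 1 base longer. The seeds of miR-210-3p, miR-210-5p, miR-342-3p and miR-342-5p occur in no other mouse miRNA of that table. The other arms of the miR-26a hairpins differ at 6 of 22 bases, and miR-26a-2-3p shares its seed with miR-26b-3p.

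The hairpins of miR-26a are shown because both hold the identical miR-26a-5p, so that its reads cannot be divided between the loci, whereas the second arm of each is its own. The arms are in capitals.
mmu-mir-26a-1: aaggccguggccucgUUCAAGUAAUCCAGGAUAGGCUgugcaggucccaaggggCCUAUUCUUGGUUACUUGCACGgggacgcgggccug
mmu-mir-26a-2: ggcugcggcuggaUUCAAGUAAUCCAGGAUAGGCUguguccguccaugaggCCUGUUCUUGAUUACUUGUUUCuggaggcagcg
Mir26a-1 lies at chr9:119031796-119031885 on the plus strand, in an intron of all 3 overlapping transcripts of Ctdspl. Mir26a-2 lies at chr10:126995530-126995613 on the plus strand, where it overlaps an exon in 2 transcripts of Ctdsp2 and an intron in 1. Mir26b is at chr1:74394310-74394394 (plus strand, intron of Ctdsp1 in 2 of 2 transcripts) and Mir342 at chr12:108658620-108658718 (plus strand, intron of Evl in 5 of 5 transcripts). Mir210 is at chr7:141221384-141221493 on the minus strand and overlaps no other gene of GENCODE M21.

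miR-26a-5p was the most abundant member, with 122996 reads over the 18 samples, followed by miR-26b-5p with 41154, miR-210-3p with 18093, miR-342-3p with 7621 and miR-210-5p with 2956. The hairpins had 351 to 761 reads each, miR-26b-3p 297 and miR-342-5p 213. The minor arms of miR-26a were near the limit of detection, with 31 reads for miR-26a-1-3p and 10 for miR-26a-2-3p. All 14 members reached the minimum of 10 reads used for testing, which 1363 rows of the series reached. Together the members took 0.875% to 1.12% of the reads in samples 22 to 27 and 1.42% to 1.86% in samples 28 to 39.

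Among the treatments miR-210-3p, the guide strand of the low-oxygen miRNA, overlapped between all 6 groups, and in each group 1 sample was far below the others. In title order, its levels were 232, 1908 and 911 CPM in control and 184, 1933 and 1907 CPM with LPS. They were 272, 1313 and 1320 CPM with CBD and 226, 2251 and 2493 CPM with CBD+LPS. With THC they were 180, 1927 and 1918 CPM, and with THC+LPS 256, 2009 and 2129 CPM. The low sample was the one numbered 22 to 27 in every group, and above that range control sample 34 and both CBD samples were the lowest.

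**Figure D1:**
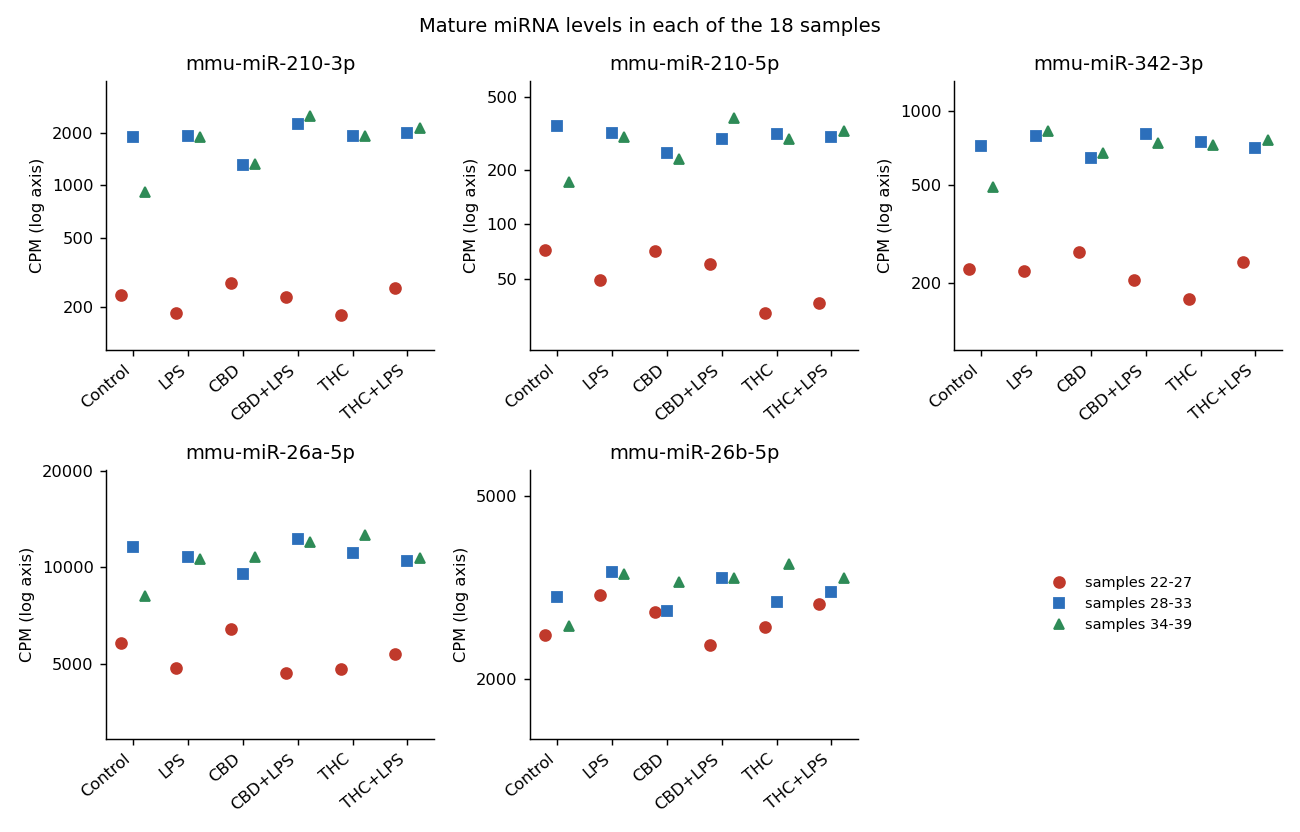
CPM of 5 mature members (log axis) in each of the 18 samples, 1 point per sample, by treatment group, with the marker giving the range of title numbers. Samples 22 to 27 lie below the other 12 in every group for miR-210-3p, miR-210-5p, miR-342-3p and miR-26a-5p, whereas for miR-26b-5p the ranges overlap.

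Over the title numbers, miR-210-3p averaged 225 ± 37.2 CPM (SD, n = 6) in samples 22 to 27 and 1835 ± 442 CPM (SD, n = 12) in samples 28 to 39, a ratio of 8.16. Samples 28 to 33 and 34 to 39 were alike, at 1890 ± 310 and 1780 ± 571 CPM (SD, n = 6 each). On the log2(CPM + 1) scale the difference of 28 to 39 minus 22 to 27 was 2.99, rank 1 among the 1363 rows, and within the 6 groups it ran from 2.27 to 3.41. In a sample of a whole culture, more cells that hold a miRNA and more of it per cell cannot be told apart.

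miR-210-5p, the other arm of the same hairpin, had rank 2 with a difference of 2.45, from 54.1 ± 17.0 CPM (SD, n = 6) to 294 ± 56.3 CPM (SD, n = 12). In title order it was at 72.3, 347 and 170 CPM in control, 49.7, 319 and 304 CPM with LPS, and 71.7, 246 and 229 CPM with CBD. It was at 60.9, 296 and 383 CPM with CBD+LPS, 32.8, 313 and 293 CPM with THC, and 37.3, 301 and 328 CPM with THC+LPS. As for the 3p arm, no sample of 22 to 27 reached the lowest of the other 12, control sample 34 at 170 CPM.

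miR-342-3p averaged 224 ± 32.7 CPM (SD, n = 6) in samples 22 to 27 and 719 ± 88.1 CPM (SD, n = 12) in samples 28 to 39, a ratio of 3.21, with no overlap. Its levels in title order were 228, 722 and 492 CPM in control, 225, 786 and 823 CPM with LPS, and 268, 642 and 672 CPM with CBD. They were 206, 802 and 743 CPM with CBD+LPS, 172, 749 and 728 CPM with THC, and 243, 708 and 759 CPM with THC+LPS. Again sample 34 was the lowest of 28 to 39.

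miR-26a-5p was 2.05-fold higher in samples 28 to 39, at 10865 ± 1215 CPM (SD, n = 12) against 5309 ± 683 CPM (SD, n = 6), also without overlap. In title order it was at 5785, 11563 and 8116 CPM in control, 4832, 10765 and 10628 CPM with LPS, and 6406, 9537 and 10735 CPM with CBD. It was at 4667, 12251 and 11964 CPM with CBD+LPS, 4798, 11071 and 12592 CPM with THC, and 5370, 10456 and 10698 CPM with THC+LPS.

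miR-26b-5p, which shares the seed of miR-26a-5p, overlapped between the ranges, at 2706 ± 257 CPM (SD, n = 6) and 3170 ± 279 CPM (SD, n = 12), a ratio of 1.17. It was at 2499, 3018 and 2606 CPM in control, 3051, 3417 and 3380 CPM with LPS, and 2796, 2811 and 3258 CPM with CBD. It was at 2380, 3311 and 3311 CPM with CBD+LPS, 2601, 2947 and 3561 CPM with THC, and 2910, 3099 and 3325 CPM with THC+LPS. The difference of 0.23 on the log2 scale fell to -0.0021 when the reads were scaled by library size alone and to -0.15 with miR-103-3p and miR-191-5p as references, so no direction is given for it.

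Of the 14 members, 5 were higher in every sample of 28 to 39 than in any of 22 to 27, namely miR-210-3p, miR-210-5p, miR-342-3p, miR-26a-5p and the hairpin mir-26a-2, and none was lower throughout. Over all tested rows 2.93% were higher throughout and 0.807% lower throughout. These values chose the families, so nothing is read from the count. The median difference was 1.04 over the members and 0.024 over all rows, again from the values that chose the families. The lowest differences were in members few in reads or from miR-26b. They were 0.04 for mir-26b, -0.11 for miR-26b-3p, -0.25 for miR-26a-2-3p and -0.47 for miR-26a-1-3p. For mir-26b the value was -0.19 when scaled by library size alone, so no direction is given for it. With the other scalings the median over all rows shifted to between -0.24 and -0.03, and miR-210-3p kept a difference of at least 2.62.

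**Figure D2:**
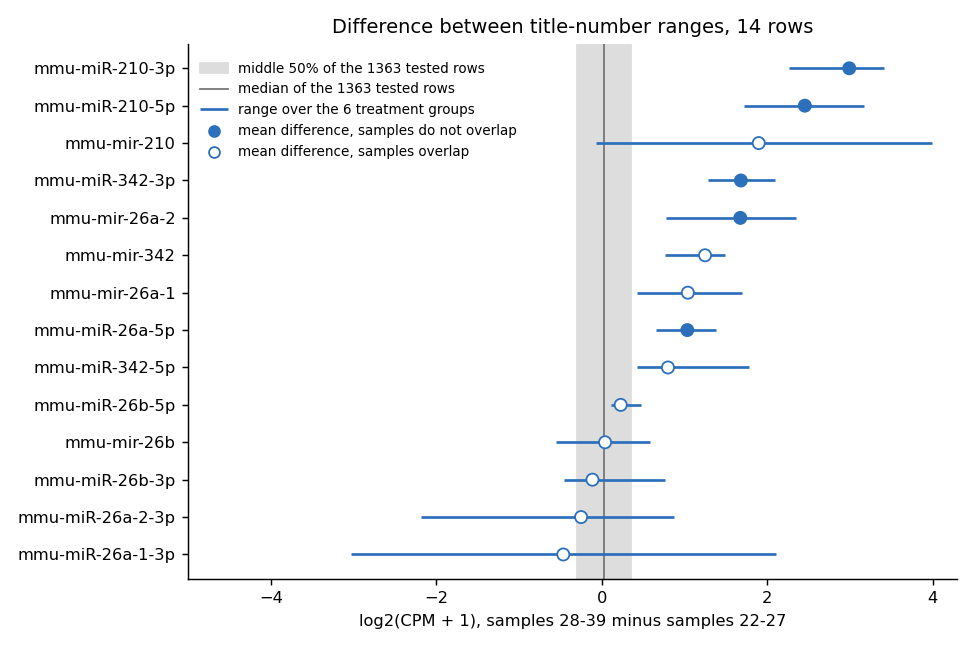
Difference in mean log2(CPM + 1) between samples 28 to 39 and samples 22 to 27 for the 14 members (circles, filled where the samples of the ranges do not overlap), with the range over the 6 treatment groups as a line. The grey band holds the middle 50% of the 1363 tested rows and the grey line their median of 0.024. Both arms of miR-210 lie farthest to the right and the miR-26b rows within the band.

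A hairpin row counts reads placed on the precursor, and how these were kept apart from reads of the arms was not stated. The hairpin mir-26a-2 was at 8.95 to 18.6 CPM in samples 22 to 27 and at 22.1 to 56.4 CPM in samples 28 to 39, whereas mir-26a-1 overlapped, at 8.51 to 19.5 and 17.4 to 40.1 CPM. mir-342 overlapped too, with a difference of 1.25, as did miR-342-5p with 0.80. Base composition was set beside the differences, and its part in them was not tested. Over the 353 of 433 mature miRNAs with at least 100 reads that had a RefSeq sequence (81.5%), the correlation of the title-number difference with GC content was 0.03 (Spearman) and 0.02 (Pearson), a description across miRNAs, which are not independent. miR-210-3p has a GC content of 63.6% and miR-26b-5p of 33.3%. The median difference was -0.01 for the 52 miRNAs under 40% GC and 0.20 for the 125 at 40% to under 50%. It was 0.18 for the 110 at 50% to under 60% and 0.09 for the 66 with at least 60%. The Spearman correlation of the difference with the mean log2 level was 0.14.

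Within the miR-26 family the balance of the paralogs differed between the ranges of title numbers. miR-26a-5p had 1.58 to 2.31 times the reads of miR-26b-5p in samples 22 to 27 and 3.11 to 3.83 times in samples 28 to 39, with medians of 1.90 and 3.38. This ratio is free of the scaling of a library. It is built from the miR-26a-5p levels that helped to choose the families, so its separation is a description and no separate result. miR-210-3p exceeded miR-210-5p in all 18 samples, by 3.21 to 6.86 times in samples 22 to 27 and 5.34 to 7.60 times in samples 28 to 39. These overlapped, with medians of 3.76 and 6.22. With LPS the ratio was 3.70 to 7.60 in 9 samples (median 6.50) and without LPS 3.21 to 6.54 in 9 (median 5.48), and these overlapped as well. Both sets pool all title numbers, so the overlap does not show that LPS left the ratio unchanged. A comparison within range and cannabinoid is not given for it. miR-342-3p exceeded miR-342-5p by 15.3 to 73.6 times, with only 3 to 18 reads of the 5p arm in a sample. Its median ratio was 18.8 in samples 22 to 27 and 40.5 in samples 28 to 39, with overlap. miR-26b-5p exceeded miR-26b-3p by 83.3 to 249 times.

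**Figure D3:**
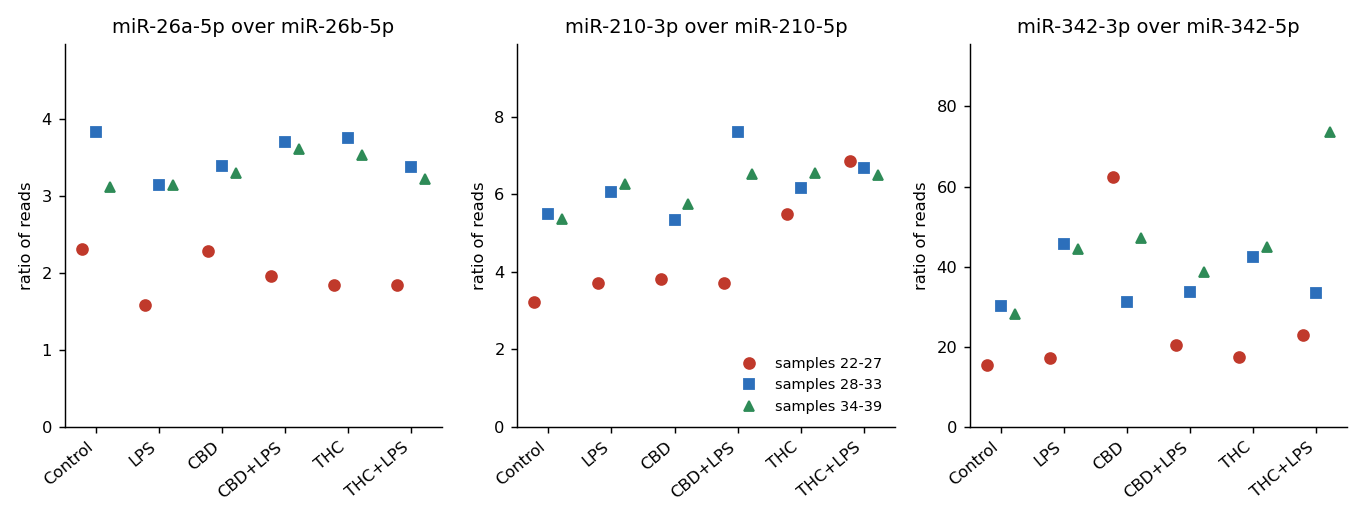
Ratio of reads in each of the 18 samples, by treatment group, for miR-26a-5p over miR-26b-5p, miR-210-3p over miR-210-5p and miR-342-3p over miR-342-5p (linear axes from 0). The miR-26 ratio is 1.58 to 2.31 in samples 22 to 27 and 3.11 to 3.83 in the others. The arm ratios overlap, with medians of 3.76 and 6.22 for miR-210 and of 18.8 and 40.5 for miR-342.

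The comparison of the treatments asked whether LPS or the cannabinoids changed the members, and none of the 14 was called in any comparison of all 18 samples fitted without a covariate. With the title-number range as a covariate 1 was called, mir-342 for the pooled effect of LPS. The test was limma over the 1363 rows, with a call at p of at most 0.005 and at least 1.5-fold. All rows together were called at 1.54% for LPS against control, 1.61% for CBD, 0.440% for THC, 1.39% for CBD+LPS and 1.83% for THC+LPS, comparisons that share the control samples. The shares were 0.220% for CBD+LPS against LPS, 0.220% for THC+LPS against LPS and 3.30% for CBD against THC. For the pooled effect of LPS and the F test of the 5 treatments, called at an adjusted p of at most 0.1, they were 1.54% and 1.76%. edgeR's quasi-likelihood test and DESeq2 on the recovered reads called 0 members too.

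At an unadjusted p of at most 0.05 by limma, 1 member passed for CBD+LPS against LPS and 1 for THC+LPS against LPS, and none in the other 8 comparisons. The first was miR-26a-2-3p, which had at most 2 reads in any sample, and no fold is given. The second was miR-26b-3p, with 14.2, 16.5 and 13.8 CPM with THC+LPS and 18.3, 41.0 and 24.7 CPM with LPS, a log2 fold change of -0.80 (SE 0.34, limma adjusted p = 0.9998). The difference failed the correction. How many of all rows passed at 0.05 was not counted, so nothing is read from these passes.

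For miR-210-3p the limma log2 fold change was 0.25 (SE 1.21) for LPS, 0.08 (SE 1.21) for CBD and 0.24 (SE 1.21) for THC against control. With the title-number range as a covariate the estimates were the same and the SE fell to 0.26. The families were chosen for their difference between these ranges, so a fall in SE follows from that choice. With that covariate CBD+LPS against control gave 0.55 (limma adjusted p = 0.63) and THC+LPS 0.48 (adjusted p = 0.81). For LPS pooled over the cannabinoids miR-210-3p gave 0.32, with SE 0.66 and adjusted p = 0.95 without the covariate, and SE 0.15 and adjusted p = 0.51 with it. An effect of this size was thus not detectable across all samples, which does not show that the levels were alike.

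In samples 28 to 39 alone, with 2 samples a group, miR-210-3p was called for CBD+LPS against control, at 2251 and 2493 CPM against 1908 and 911 CPM. The log2 fold change was 0.84 (SE 0.22, limma adjusted p = 0.0735), where 3.89% of all rows were called. The control samples differed from each other by more than control sample 28 differed from either treated sample. miR-210-3p and mir-210 passed the F test there (limma adjusted p = 0.0436 and 0.0121), beside 18.2% of all rows. Samples 28 to 39 were set apart by the same title-number difference that chose the families, so leaving out the rest removes that spread. Calls in this subset are a description and no independent evidence, and all rows are no matched background for them.

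The hairpin mir-210 was low with CBD in samples 28 to 39. It was at 18.8 and 39.5 CPM (10 and 25 reads) with CBD, 78.7 and 55.9 CPM in control, 68.5 and 63.5 CPM with THC, and 67.5 and 66.9 CPM with LPS. With CBD+LPS it was at 89.0 and 79.2 CPM and with THC+LPS at 68.6 and 74.5 CPM. Both CBD samples lay below all 10 others of 28 to 39. In samples 28 to 39 the log2 fold change of mir-210 with CBD was -1.25 (SE 0.29, limma adjusted p = 0.00821) against control and -1.24 (SE 0.29, adjusted p = 0.00849) against THC. There 11.2% and 11.6% of all rows were called. Most of these were lower with CBD, as mir-210 was, 127 of 153 against control and 117 of 158 against THC. miR-26a-1-3p was called against control as well, from 0 reads in both CBD samples and 2 and 6 reads in control, too few for a fold.

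These CBD samples were also the 2 with the lowest share of the hairpin trio mir-6243, mir-6240 and mir-6236. CBD samples 30 and 36 also had the fewest reads of their ranges (541844 and 660003) and the fewest rows with a read (1100 and 1157). Within 28 to 39 the treatment, this composition and the number of rows detected cannot be told apart. The part of library size was not tested. Over those 12 samples the log2 level of mir-210 and the log2 of that share had a Pearson r of 0.84 and, without the CBD samples, -0.11 (n = 10), a description, and in samples 22 to 27 it was 0.95 (n = 6). Control sample 22 and THC+LPS sample 27, the other samples of low share, had 4.25 and 3.55 CPM of mir-210 (2 reads each) against 19.6 to 38.3 CPM in the other 4 of that range. Samples 22 and 27 also had the fewest reads of that range (442718 and 539785). In all 18 samples the fold change for CBD was -0.00078 (SE 0.99) and became 1.28 with the composition as a covariate, without a call. For the mature arm miR-210-3p the r with the share was 0.39 in samples 28 to 39.

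**Figure D4:**
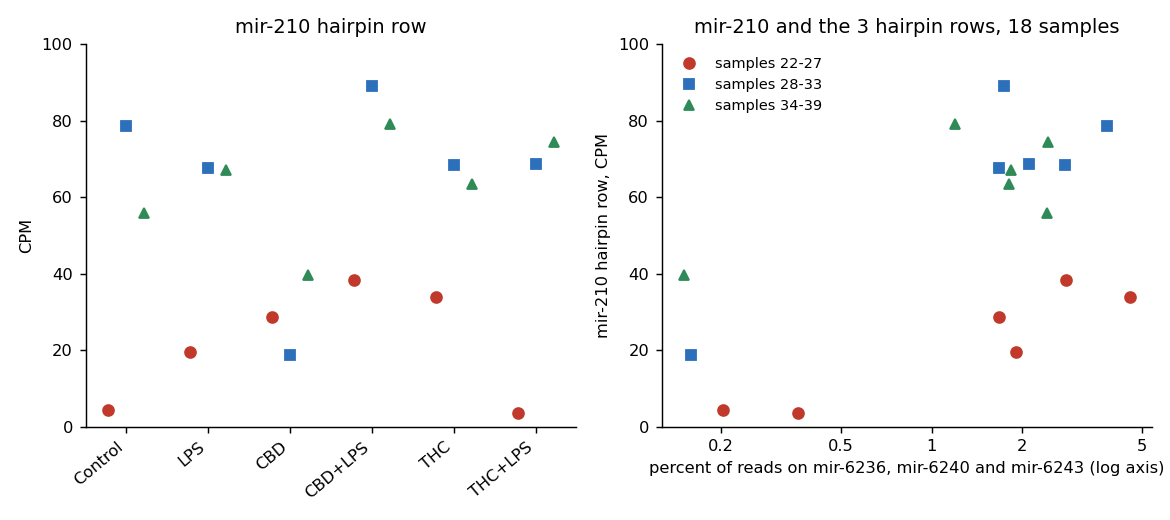
Left, CPM of the mir-210 hairpin row in each sample by treatment group. Right, the same values against the percent of a library taken by mir-6243, mir-6240 and mir-6236 (log axis), 1 point per sample. The 4 samples with shares of 0.151% to 0.361% have 3.55 to 39.5 CPM, and the 2 of them from samples 28 to 39 are both CBD.

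The hairpin mir-342 was the only member called for LPS once the title-number range was a covariate. With LPS it was at 34, 95.3 and 99.9 CPM and in control at 25.5, 90.6 and 44.3 CPM. It was at 25.9, 65.1 and 58.8 CPM with CBD+LPS against 14.3, 62.0 and 28.4 CPM with CBD, and at 44.4, 76.8 and 75.6 CPM with THC+LPS against 25.9, 63.7 and 60.8 CPM with THC. Within each range and cannabinoid the LPS sample was the higher in 9 of 9 comparisons, by 0.07 to 1.16 on the log2 scale, and in 7 of 9 when the reads were scaled by library size alone or by the reference miRNAs. The pooled log2 fold change was 0.54 in both fits, with SE 0.32 and limma adjusted p = 0.89 without the covariate, and SE 0.15 and adjusted p = 0.0973 with it, where 2.42% of all rows were called. In samples 28 to 39 alone it was 0.48 (SE 0.20, limma adjusted p = 0.35). The families were chosen for a difference between the title-number ranges, so a smaller SE with the range as a covariate follows from that choice. All rows, which were not chosen so, are no matched background for the call of mir-342. The mature arm miR-342-3p was higher with LPS in 6 of 9 such comparisons, but in 4 of 9 when scaled by library size alone and 3 of 9 by the reference miRNAs, so no direction is given. It had a pooled log2 fold change of 0.16 (SE 0.38, limma adjusted p = 0.95).

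**Figure D5:**
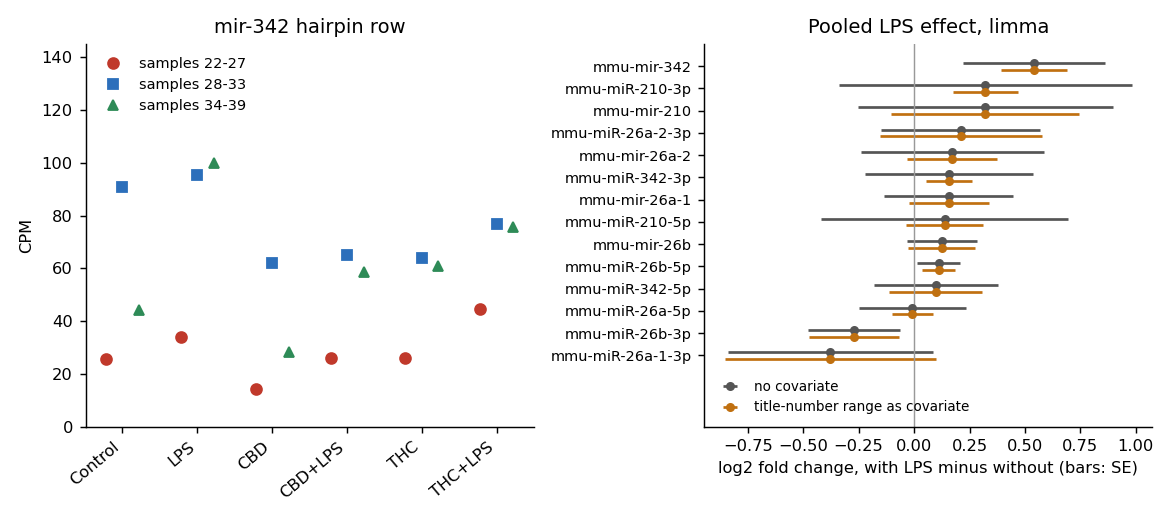
Left, CPM of the mir-342 hairpin row in each sample by treatment group. Right, limma log2 fold change of LPS pooled over the cannabinoids for the 14 members, with SE as bars, without a covariate and with the title-number range as one. mir-342 has the largest estimate, 0.54, with an SE of 0.32 that falls to 0.15.

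miR-26a-5p and miR-26b-5p gave pooled log2 fold changes for LPS of -0.01 (SE 0.24, limma adjusted p = 0.995) and 0.11 (SE 0.10, adjusted p = 0.93). The median over the 14 members was 0.15, beside 0.03 over all rows. miR-210-5p gave 0.14 (SE 0.56, adjusted p = 0.96).

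Over all 18 samples, which hold the title-number difference, the levels of most abundant members moved together. The log2 levels of miR-210-3p and miR-342-3p had a Pearson r of 0.99 over the 18 samples. It was 0.88 over samples 28 to 39 (n = 12) and 0.80 over samples 22 to 27 (n = 6). For miR-210-3p and miR-26a-5p these values were 0.98, 0.84 and 0.76, and for both arms of miR-210 0.98, 0.95 and 0.50. miR-210-3p and miR-26b-5p had 0.73 and 0.71, and only -0.03 in samples 22 to 27 (n = 6). These samples share the title-number difference and the scaling of each library, so the values are a description. Of 649 other rows with at least 100 reads, those most like miR-210-3p over the 18 samples were miR-1843a-5p (r = 0.98), miR-3964 (0.97) and miR-181a-5p (0.97). For miR-342-3p they were miR-93-5p, miR-1843a-5p and miR-1249-3p (r = 0.97 each), and the same 3 were nearest to miR-26a-5p (0.97 each). miR-26b-5p was closest to miR-301a-3p (0.91), miR-29a-3p (0.91) and miR-30b-5p (0.88). Over samples 28 to 39 alone (n = 12) the r of the same pairs was 0.96 to 0.97 for miR-210-3p and 0.78 to 0.93 for miR-342-3p. It was 0.81 to 0.86 for miR-26a-5p and 0.77 to 0.88 for miR-26b-5p.

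Other miRNAs described as responding to low oxygen, the miR-23, miR-24, miR-27, miR-103/107 and miR-181 families, were taken as a list of 11 rows. None was called in any treatment comparison. Over the title numbers 2 of 11 were higher throughout in samples 28 to 39, miR-103-3p (5110 ± 657 to 7038 ± 529 CPM, SD, n = 6 and 12) and miR-181a-5p (16578 ± 3520 to 43774 ± 8493 CPM), and none was lower throughout, beside 2.93% and 0.807% of all tested rows. The median difference was 0.53, beside 0.024 for all rows and 2.99 for miR-210-3p. All tested rows include hairpins and rows of few reads, so they are no matched background for these mature miRNAs. For mature miRNAs with at least 100 reads and a sequence, the medians of the GC classes were -0.01 to 0.20. Whether the list differed from miRNAs of like abundance was not tested. The largest difference in the list was 1.49 for miR-181c-5p, from 39.7 ± 8.42 to 119 ± 38.5 CPM, with overlap. At the other end miR-27a-3p had 0.01, from 6881 ± 622 to 6944 ± 498 CPM. The list was chosen with earlier results known, and miR-103-3p also served as a reference for scaling.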

How the data were processed

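Small RNA of 18 BV-2 samples was sequenced. By the study's methods the authors used BWA against mouse miRBase, allowing at most 10 mappings a read, counted reads per known miRNA and used edgeR. The miRBase release of that alignment is not given in the sources used here. The deposited values are CPM, reads divided by library size times a TMM factor. Where the TMM factor was below 1, a sample's deposited values sum to more than plain CPM would, and their unit was recorded as a signal although the scale is the same. Every value was a whole multiple of a read (100% at a tolerance of 0.001), and TMM recomputed from these reads deviated from the deposited scale by at most 4.86e-10. How reads with several mappings were shared between rows was not stated, so hairpins and their arms may share reads.

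Samples were grouped by their labels. Rows with at least 10 reads were tested on log2(CPM + 1) by limma 3.58.1 with a mean-variance trend (R 4.3.3), in 1 model of the 6 groups, and for the pooled LPS effect with cannabinoid as an additive term. Fold changes on this scale understate changes of low rows. Tests were 2-sided, with Benjamini-Hochberg adjustment over all 1363 rows. Comparisons of 2 groups were called at p of at most 0.005 and 1.5-fold, the pooled effect and F test at an adjusted p of at most 0.1. Alternatives were other scalings, filters and pseudocounts, edgeR 4.0.16, DESeq2 1.42.0, covariates, samples 28 to 39 alone and each sample left out. The fits were tested on simulated data. Floors of 3 reads cover counting error only. Named rows are all members, the 3 rows most correlated with each of 4 members, and the fixed low-oxygen, marker and reference lists. The members and lists were chosen with earlier results of these data known. Sequences and positions are from RefSeq GRCm38.p6, gene context from GENCODE M21 on GRCm38.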

Additional observations from a re-analysis of the deposited data

How the results depend on the processing

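No member was called under any other scaling, filter, pseudocount, test or composition covariate, nor with any single sample left out, when all 18 or 17 samples were fitted. Samples 28 to 39 alone gave 2 members called for CBD against control, 1 for CBD+LPS against control, 1 for CBD against THC and 2 in the F test, and the title-number range as a covariate gave 1 for pooled LPS. The cause was not tested, and both fits use the split of title numbers by which the families were chosen. Each title number is used once, so no number pairs samples across groups, and the range of title numbers was the only block fitted. For the title-number difference on the log2 scale, scaling by miR-103-3p and miR-191-5p gave 2.62 for miR-210-3p, 1.31 for miR-342-3p, 0.66 for miR-26a-5p, -0.15 for miR-26b-5p and -0.33 for mir-26b, and scaling by library size alone gave 1.45 for miR-342-3p, 0.80 for miR-26a-5p and -0.0021 for miR-26b-5p. The median of all rows shifted to -0.24 and -0.14 under these scalings, against 0.024. Depth limits the minor arms of miR-26a, with at most 6 reads in a sample.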
